A study of Mus musculus with 33 samples.

Results

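The INK4 inhibitors are the products of *Cdkn2a*, *Cdkn2b*, *Cdkn2c* and *Cdkn2d*, and the rows of these 4 genes among the 32285 gene identifiers of each count table were taken by their Ensembl gene ID. The family was chosen by its levels across the lines, of which *Cdkn2a* and *Cdkn2b* spanned a wide range, so the levels and differences of the 4 genes below are a description with no test. Transcriptomes of 33 libraries of mouse colon organoids were read with QuantSeq, which makes 1 tag per transcript at its 3′ end, and all 4 genes were among the 13606 that reached 1 CPM, counts per 1000000 counts of a library, in 3 or more libraries. Organoids were grown for 3 days and kept without growth factors in basal medium for the 24 h before RNA was taken.

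All lines carry floxed *Apc* (fl/fl), floxed *Trp53* (fl/fl) and a further Cre-dependent allele that is not reported here, and Cre recombination of these alleles gives the genotype AKP. Control organoids (n = 6 libraries) hold the alleles with no induction. Organoid AKP (n = 6) was recombined in conventional organoid culture by OptoCre, a Cre recombinase switched on by blue light together with doxycycline, and was passaged beside the mini-colons. Mini-colon AKP lines #i to #v (n = 3 each) were derived as organoids from tumours that arose in mini-colons, perfused microfluidic epithelia induced with OptoCre, and the study describes #v as enriched for crypt tumours and #i as enriched for lumen tumours. In vivo AKP (n = 6) was grown from colon tumours of AKP mice in which tamoxifen had activated a Cdx2 promoter-driven CreERT2 at an age of 8 to 10 weeks, 6 weeks before the tumours were taken. The study counts the samples of organoid AKP and the mini-colon lines as cultures, while the labels tie no library to a separate tumour or mouse, so p-values measure the spread between these samples only.

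Each INK4 protein binds the cyclin-dependent kinases CDK4 and CDK6 and keeps D-type cyclins from activating them, so that the retinoblastoma protein stays unphosphorylated, E2F factors stay bound and cells remain in G1. *Cdkn2a* encodes p16INK4a and, from another first exon and in another reading frame, p19ARF, which binds MDM2 and so releases p53. *Cdkn2b* encodes p15INK4b, a TGFβ-responsive inhibitor, *Cdkn2c* encodes p18INK4c and *Cdkn2d* encodes p19INK4d. In mouse tissues *Cdkn2a* is little expressed and rises with culture, oncogene activity and senescence, and p53 itself holds ARF expression down.

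The libraries held 2438672 to 8256526 counts (median 3748649), and levels are CPM scaled by trimmed mean of M values (TMM). The names of the deposited tables carry the letter E or F, whose meaning is not given in the sources used here. Lines #i, #ii and #iii have letter E, #iv and #v letter F, while 3 libraries of each letter make up each of the lines with 6, and values are therefore also given within a letter. The 9 epithelial markers summed to 10141 to 11340 CPM in control and to 2884 to 3557 CPM in the AKP lines. The 10 fibroblast and muscle markers summed to 3.85 to 34.2 CPM in control, organoid AKP and lines #i to #iv, to 60.9 to 135.5 CPM in #v and to 45.04 to 286.5 CPM in in vivo AKP, of which *Vim* held the most in all lines except control and #iv, where *Fn1* did, with *Lum* at 0 in every line. The 8 immune markers stayed at or under 15.7 CPM with *Adgre1* at 0 in every line, and the 5 endothelial markers at or under 5.20 CPM. *Trp53* tags, the targeted gene read at its 3′ end, were at 17.05 ± 1.64 CPM in control (SD), 1.77 ± 1.004 CPM in organoid AKP, 2.22 to 3.24 CPM in #i, #ii, #iv and #v, 9.86 ± 2.24 CPM in #iii and 25.5 ± 5.52 CPM in in vivo AKP. The study's methods give the deletion as exons 2 to 10, and the canonical transcript has 11 exons in GENCODE vM39, so a tag at its 3′ end lies outside the deleted part and does not check the deletion.

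*Cdkn2a* lies on the minus strand of chromosome 4 of GRCm39 from 89192708 to 89212890, and *Cdkn2b* lies upstream of it on the same strand from 89223204 to 89229276, with 10313 bases between the gene bodies. *Cdkn2c* is also on the minus strand of chromosome 4, from 109517957 to 109524386, and *Cdkn2d* on the minus strand of chromosome 9, from 21199700 to 21202727. GENCODE M39 gives *Cdkn2a* 2 transcripts, of which Cdkn2a-201 (p16INK4a) starts at exon 1α, 89200223 to 89200429, and Cdkn2a-202 (p19ARF) at exon 1β, 89212571 to 89212890. Both splice into the same exon 2, 89194882 to 89195222, and both end in exon 3 with 5′ edge 89193011. The last 30 bases of each first exon and the first 30 bases of exon 2 are shown because they explain what a 3′ tag can separate, with exon 2 in capitals and the coding strand written 5′ to 3′.
Cdkn2a-201 (p16INK4a): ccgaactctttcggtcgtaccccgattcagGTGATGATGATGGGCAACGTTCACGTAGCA
Cdkn2a-202 (p19ARF): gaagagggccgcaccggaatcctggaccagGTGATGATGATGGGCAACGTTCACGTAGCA

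The capitals are the same in both transcripts, but the annotation starts a codon at the first base of exon 2 in Cdkn2a-201 and at the third base in Cdkn2a-202, where the first 2 bases complete a codon of exon 1β. The coding sequences hold 504 and 507 bases. A tag from exon 3 therefore carries no sign of its first exon, and every *Cdkn2a* value below is the sum of p16INK4a and p19ARF transcripts. The other members each give tags of 1 protein. The lncRNA *Gm12610* overlaps *Cdkn2b* on the other strand and had 2 counts in all 33 libraries.

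Because *Cdkn2a* and *Cdkn2b* followed each other across lines, their promoters are shown, with the bases before the first annotated base of each first exon taken from the RefSeq promoter table and placed on GRCm39 by exact match. Capitals mark TTTNNCGC, used here as a loose E2F pattern in which N is any base, and TGACGTCA, the cAMP response element (CRE). Both were searched on both strands, and their matches do not overlap each other here.
Cdkn2a exon 1β promoter, chr4:89212891-89213106, minus strand: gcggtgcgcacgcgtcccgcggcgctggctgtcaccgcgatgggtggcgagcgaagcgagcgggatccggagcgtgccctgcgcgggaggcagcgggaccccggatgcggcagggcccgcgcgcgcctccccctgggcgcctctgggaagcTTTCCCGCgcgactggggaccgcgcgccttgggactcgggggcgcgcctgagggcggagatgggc
Cdkn2a exon 1α promoter, chr4:89200430-89200679, minus strand: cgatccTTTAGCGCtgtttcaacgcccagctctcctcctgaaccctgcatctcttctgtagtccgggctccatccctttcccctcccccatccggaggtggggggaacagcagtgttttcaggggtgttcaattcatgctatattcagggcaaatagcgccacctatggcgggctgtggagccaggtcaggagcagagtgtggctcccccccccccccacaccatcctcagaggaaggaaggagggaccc
Cdkn2b promoter, chr4:89229277-89229519, minus strand: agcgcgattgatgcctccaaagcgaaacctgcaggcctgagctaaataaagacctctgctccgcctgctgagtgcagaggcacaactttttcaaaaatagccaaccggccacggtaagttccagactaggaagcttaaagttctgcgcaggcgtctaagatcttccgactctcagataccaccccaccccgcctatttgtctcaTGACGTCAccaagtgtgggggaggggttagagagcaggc

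In windows from 250 bases before to 50 bases after the RefSeq start, TTTNNCGC occurred 1 time in each *Cdkn2a* promoter and in none of the *Cdkn2b*, *Cdkn2c* and *Cdkn2d* windows, and 5.2% of 32851 promoters held it. TGACGTCA occurred in the *Cdkn2b* window alone among the 6 windows of the family, 46 bases before the start, against 1.8% of all promoters. The GC box GGGCGG, on either strand, was found 3 times in the exon 1β window, 1 time each in the exon 1α and *Cdkn2b* windows, 4 times in the first *Cdkn2c* window and 5 times in that of *Cdkn2d*, and 35.7% of all promoters held it. TGANTCA, the AP-1 motif, and AGGTGTGA, a T-box motif, were in none of the 6 windows, against 7.8% and 1.3% of all promoters, and CACGTG, the E-box, was in the second *Cdkn2c* window only, against 7.2%. The exon 1β window was the richest in G and C of the 6, at 77.0% with 45 CpG dinucleotides, whereas exon 1α had 60.3% and 12 and *Cdkn2b* 57.7% and 18, and the medians of all promoters were 52.7% and 7. The exon 1α and exon 1β starts lie 12427 bases apart.

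*Cdkn2a* was the most abundant INK4 transcript in 7 of the 8 lines and also the one that differed most between them. Control libraries lay within 124 and 131 CPM with a median of 129 CPM, a mean of 128.5 ± 2.59 CPM (SD, n = 6). Organoid AKP libraries lay between 189 and 243 CPM with a median of 210.3 CPM, and in vivo AKP libraries between 714 and 786 CPM with a median of 747.5 CPM. No library of these 3 lines overlapped with another of the 3, and in vivo AKP, at 750.2 ± 28.3 CPM, was the highest line of all. In bulk RNA, fewer cells that express a gene and less RNA per cell cannot be told apart.

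The mini-colon lines lay on both sides of organoid AKP. Line #i had 325, 317 and 254 CPM, and line #ii had 312, 286 and 272 CPM. Line #iv had 136, 134 and 127 CPM, close to control, and line #v had 66.5, 59.5 and 59.2 CPM. Line #iii was the lowest, with 13.0, 20.1 and 16.1 CPM, from 47, 110 and 46 counts.

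Ordered by mean, *Cdkn2a* fell from in vivo AKP (750.2 CPM) through #i (299 CPM), #ii (290.1 CPM), organoid AKP (213 CPM), #iv (132 CPM), control (128.5 CPM) and #v (61.7 CPM) to #iii (16.4 CPM). Only the neighbours #i and #ii, and #iv and control, overlapped in their libraries. From the highest to the lowest line the span was 45.7-fold, and the line means of 98.0% of the 13606 genes had a narrower range on the log2 scale. The SD between control libraries was 2.01% of the mean where counting error alone gives 4.52%, while in organoid AKP it was 8.86% against 3.32% and in #iii 21.8% against 13.2%.

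**Figure D1:**
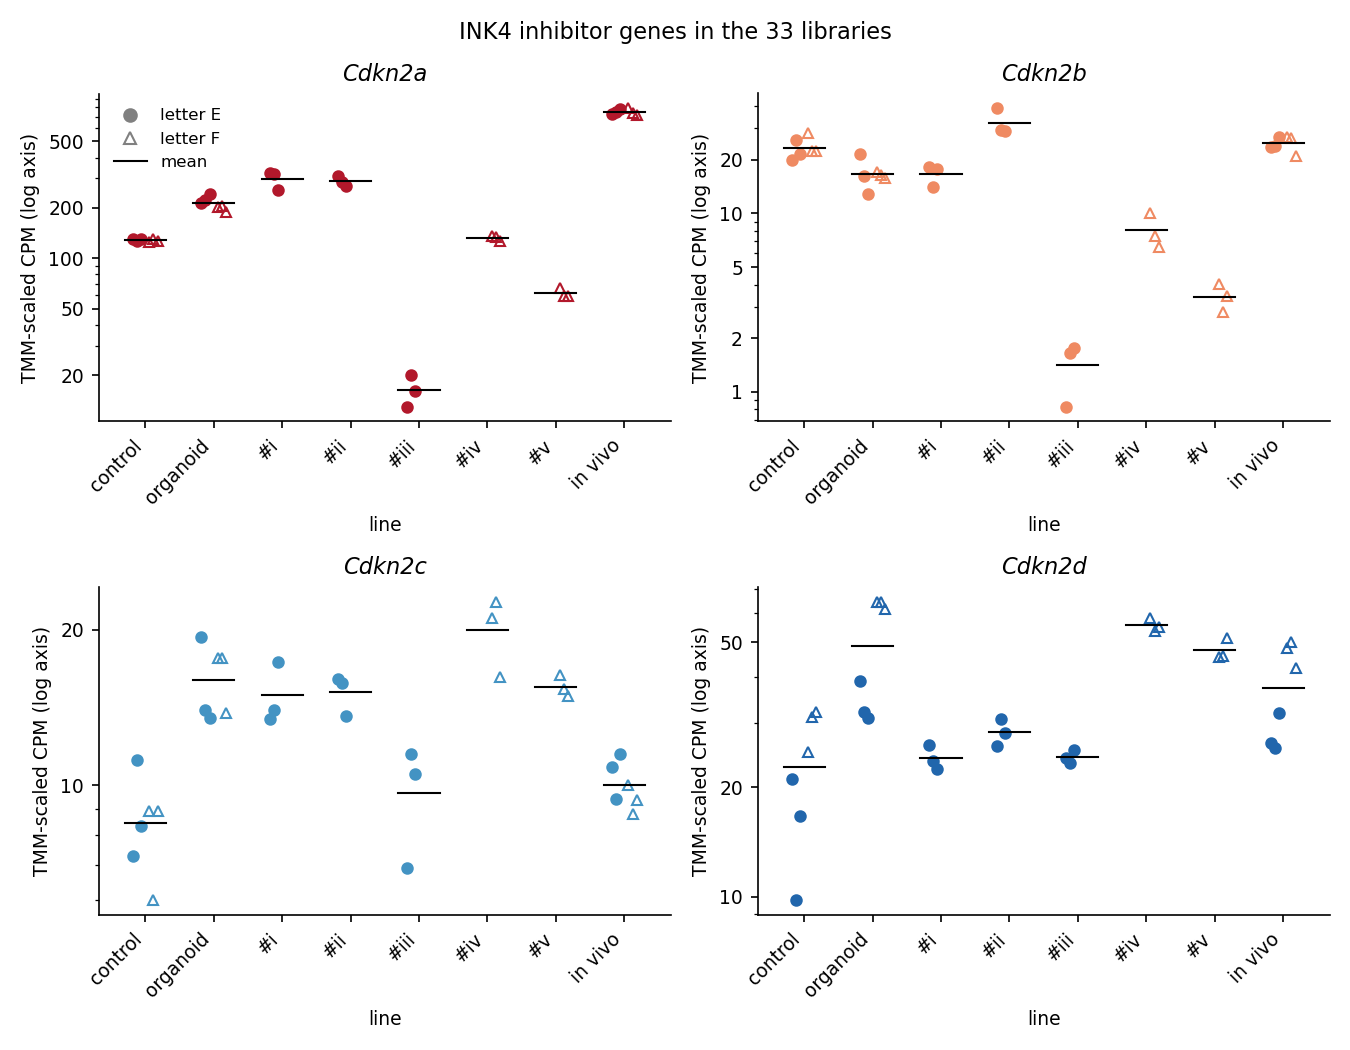
TMM-scaled CPM (log axes) of the 4 INK4 genes in each of the 33 libraries, by line, with filled circles for letter E, open triangles for letter F and a bar at the mean of each line. *Cdkn2a* and *Cdkn2b* were lowest in #iii (16.4 and 1.41 CPM), *Cdkn2c* stayed between 8.44 and 19.98 CPM on average, and *Cdkn2d* was higher in letter F than in letter E in each line that has both.

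*Cdkn2b*, the neighbour of *Cdkn2a*, was present at a lower level and was again lowest in #iii and next lowest in #v. Unlike *Cdkn2a*, it was also lower in #iv than in control. Control libraries lay between 19.95 and 28.2 CPM with a median of 22.4 CPM, organoid AKP libraries between 12.9 and 21.5 CPM with a median of 16.4 CPM, whereas in vivo AKP libraries lay between 20.95 and 27.0 CPM with a median of 25.1 CPM. These 3 lines overlapped, in contrast to their *Cdkn2a* levels.

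Line #ii was the highest line, with 38.8, 29.2 and 28.9 CPM, above every library of every other line. Line #i had 18.1, 14.0 and 17.7 CPM, within the range of organoid AKP. The remaining mini-colon lines lay under all libraries of control, organoid AKP and in vivo AKP.

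Line #iv had 10.1, 7.45 and 6.53 CPM and line #v had 4.01, 2.79 and 3.45 CPM. Line #iii had 0.829, 1.65 and 1.75 CPM, which rest on 3, 9 and 5 counts with 95% exact Poisson intervals of 0.171 to 2.42, 0.753 to 3.13 and 0.570 to 4.09 CPM. These intervals cover counting error only. The ranges of #iv, #v and #iii did not overlap, but the upper limits of the intervals of #iii replicates 2 and 3 reached into or past the range of #v. The means of *Cdkn2b* spanned 22.9-fold, from 32.3 ± 5.64 CPM in #ii to 1.41 ± 0.506 CPM in #iii (SD, n = 3 each), and 95.01% of genes had a narrower range of line means.

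Over the 8 line means of log2 CPM, *Cdkn2a* and *Cdkn2b* correlated with r = 0.893 (Spearman rho = 0.762), where both genes of a point come from the same libraries and share their depth. The ratio of their tags was not constant. In control libraries there were 4.42 to 6.58 *Cdkn2a* tags per *Cdkn2b* tag, in organoid AKP 10 to 18.8 and in in vivo AKP 28.1 to 34.1. The ranges of control, organoid AKP and in vivo AKP did not overlap. In the mini-colon lines the mean ratio was 18.3 in #i, 9.09 in #ii, 12.4 in #iii, 16.95 in #iv and 18.4 in #v, so the mean ratio of the lines with the least of both transcripts lay within the range of organoid AKP.

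**Figure D2:**
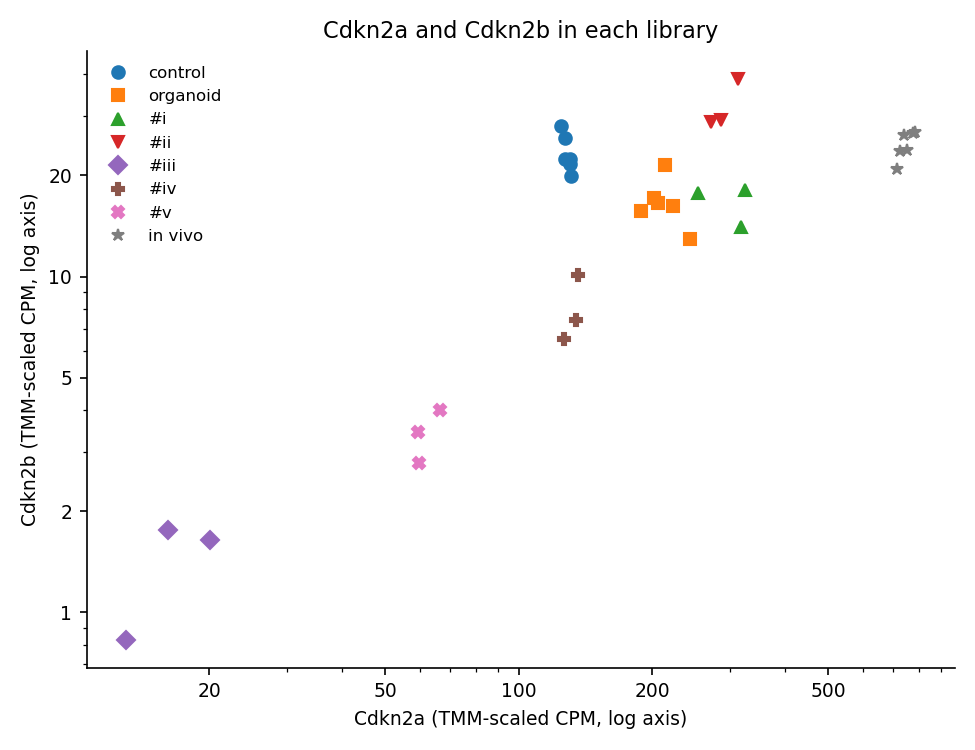
*Cdkn2a* against *Cdkn2b* in each of the 33 libraries, both as TMM-scaled CPM on log axes, with a symbol for each line. The libraries of #iii and #v stand apart at the low end of both genes and those of #iv at the low end of *Cdkn2b* alone, whereas in vivo AKP (750.2 CPM *Cdkn2a*) shares its *Cdkn2b* range with control (24.8 and 23.4 CPM on average).

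*Cdkn2c*, whose product p18INK4c restrains progenitor and lymphoid proliferation, varied little. Control libraries lay between 5.99 and 11.2 CPM with a median of 8.62 CPM, organoid AKP libraries between 13.5 and 19.4 CPM with a median of 15.8 CPM, and in vivo AKP libraries between 8.80 and 11.5 CPM with a median of 9.72 CPM. Every organoid AKP library was above every control and in vivo AKP library. Line #i had 13.5, 14.0 and 17.4 CPM, line #ii 16.1, 15.8 and 13.6 CPM, line #iv 21.1, 22.7 and 16.2 CPM, and line #v 16.3, 15.4 and 14.9 CPM. Line #iii had 6.91, 11.5 and 10.5 CPM, in the range of control and in vivo AKP and under the other mini-colon lines. From #iv at 19.98 ± 3.37 CPM to control at 8.44 ± 1.76 CPM the span was 2.37-fold, and 43.2% of genes had a narrower range. Among neighbours in the order of means only #i and in vivo AKP were separate, so that the lines form a higher group of 5 and a lower group of in vivo AKP, #iii and control.

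*Cdkn2d*, which encodes p19INK4d, an inhibitor that oscillates with the cell cycle in other cells, moved with the letter. In control the letter E libraries had 21.1, 9.80 and 16.7 CPM and the letter F libraries 25.0, 31.2 and 32.1 CPM. In organoid AKP they had 39.2, 32.2 and 31.0 CPM against 64.4, 64.2 and 61.4 CPM, and in in vivo AKP 26.4, 25.6 and 31.9 CPM against 48.1, 50.01 and 42.6 CPM. Letter F was above letter E without overlap in each of the 3 lines, by 1.86-fold, 1.86-fold and 1.68-fold.

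Of the 4 genes, 1 had non-overlapping letters in control, where 38.3% of all genes tested did, and 1 in in vivo AKP, where 52.4% did. In organoid AKP 2 had, *Cdkn2d* and *Cdkn2a* (227 ± 14.7 CPM in E and 199 ± 9.32 CPM in F, SD, n = 3 each), against 41.6% of all genes. *Cdkn2b* and *Cdkn2c* overlapped between the letters in all 3 lines.

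The order of the lines in *Cdkn2d* is therefore also an order of letters. Lines #i (26.0, 23.7 and 22.5 CPM), #ii (25.9, 30.8 and 28.2 CPM) and #iii (24.04, 23.2 and 25.3 CPM) have letter E, and lines #iv (58.2, 53.7 and 54.9 CPM) and #v (45.5, 45.7 and 51.3 CPM) have letter F. Set beside organoid AKP libraries of their own letter, all 15 mini-colon libraries were lower. Every control library was also under the organoid AKP libraries of its letter. From #iv at 55.6 ± 2.33 CPM to control at 22.6 ± 8.61 CPM the span was 2.46-fold and 51.1% of genes had a narrower range.

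The make-up of the INK4 tags followed *Cdkn2a*. The 4 genes summed to 183 ± 6.95 CPM in control, 294 ± 9.93 CPM in organoid AKP, and in vivo AKP reached 822 ± 33.7 CPM (SD, n = 6 each). *Cdkn2a* held 70.3 ± 3.31%, 72.4 ± 5.998% and 91.2 ± 1.20% of these tags. In line #iii the sum was 51.6 ± 6.12 CPM, of which *Cdkn2d* held 47.3 ± 6.31%, *Cdkn2a* 31.6 ± 3.54% and *Cdkn2c* 18.5 ± 2.67% (SD, n = 3), and #iii was the line where *Cdkn2a* was not the leading member. In line #v *Cdkn2a* held 48.1 ± 2.14% and *Cdkn2d* 37.1 ± 2.71% of 128 ± 4.501 CPM. In the lines with both letters *Cdkn2d* was 1.68-fold to 1.86-fold higher in letter F than in letter E. Line #iii has letter E and #v letter F, so line and letter cannot be told apart between their shares. Since QuantSeq makes 1 tag per transcript, these shares compare transcripts without a correction for length.

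**Figure D3:**
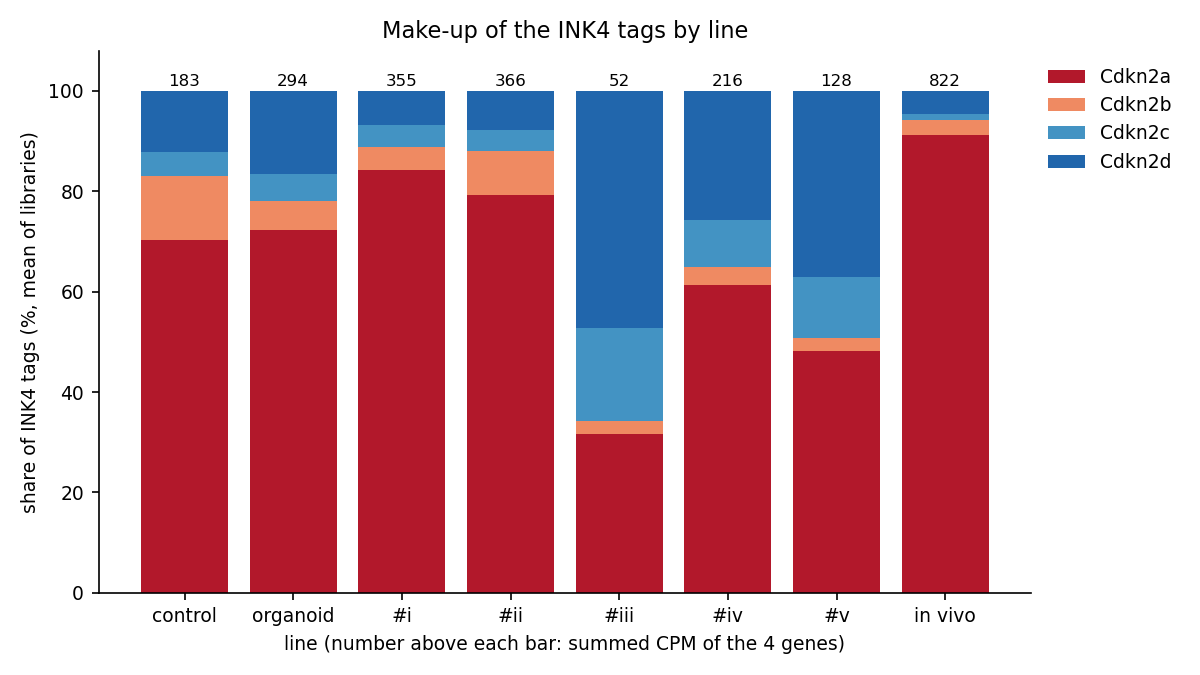
Share of the INK4 tags (%, mean over the libraries of a line) held by each of the 4 genes, with the summed CPM above each bar. *Cdkn2a* held 91.2% in in vivo AKP and 31.6% in #iii, where *Cdkn2d* led with 47.3%. Lines #i to #iii have letter E, and #iv and #v have letter F, in which *Cdkn2d* was higher.

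The comparison of organoid AKP with control addresses what recombination of the 3 alleles in conventional culture went with. *Cdkn2a* was 0.73 higher on the log2 scale (SE 0.08), *Cdkn2c* 0.93 higher (SE 0.14) and *Cdkn2d* 1.08 higher (SE 0.21), while *Cdkn2b* was 0.50 lower (SE 0.13). The libraries of *Cdkn2a* and *Cdkn2c* did not overlap, which is 2 of the 4 genes in the higher direction, against 26.1% of all genes tested. *Cdkn2d* overlapped across letters and did not overlap within them, with differences of 1.08 (SE 0.19) in letter E alone and 1.04 (SE 0.10) in letter F alone. *Cdkn2a* differed by 0.78 (SE 0.10) in letter E and 0.58 (SE 0.07) in letter F.

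The comparison of in vivo AKP with organoid AKP sets organoids grown from tumours of mice against organoids that were recombined in culture. Both lines are named AKP, while the Cre differed, CreERT2 in mice and OptoCre in culture. *Cdkn2a* was 1.82 higher (SE 0.08), a 3.52-fold difference, with 1.74 (SE 0.10) in letter E and 1.93 (SE 0.07) in letter F. *Cdkn2b* was 0.58 higher (SE 0.13) with overlapping libraries. *Cdkn2c* was 0.67 lower (SE 0.14) and *Cdkn2d* 0.41 lower (SE 0.20), the latter with 0.27 lower (SE 0.16) in letter E and 0.42 lower (SE 0.10) in letter F. Libraries did not overlap for 1 gene in the higher direction (*Cdkn2a*, against 7.19% of all genes) and 1 in the lower direction (*Cdkn2c*, against 6.99%). *Vim* and *Fn1*, the fibroblast and muscle markers that could be tested (2 of 10), were also called higher in in vivo AKP, where the others averaged at most 0.231 CPM and *Col3a1*, *Dcn* and *Lum* were at 0. These 2 markers and *Trp53* tags moved with this comparison, and their part in it was not tested.

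The comparison of mini-colon AKP #v with #i sets the line enriched for crypt tumours against the line enriched for lumen tumours, a pair that the study picked by a score over these libraries. *Cdkn2a* was 2.28 lower in #v (SE 0.12), a 4.86-fold difference, and *Cdkn2b* was 2.30 lower (SE 0.22), a 4.92-fold difference. *Cdkn2c* was 0.05 higher (SE 0.20) with overlapping libraries, and *Cdkn2d* was 0.98 higher (SE 0.30). Libraries did not overlap for 2 genes in the lower direction, against 24.3% of all genes, and for 1 in the higher direction, against 27.2%. Line #i has letter E and line #v letter F, so line and letter cannot be told apart within this pair. With the letter as a covariate, estimated in the 3 lines that have both letters, *Cdkn2a* and *Cdkn2b* differed by -2.21 and -2.33 (SE 0.12 and 0.25), whereas *Cdkn2d* differed by 0.14 (SE 0.17). The same 2 markers, *Vim* and *Fn1*, were called higher in #v than in #i, where the 10 markers summed to 60.9 to 135.5 CPM against 6.73 to 11.7 CPM, and their part in these differences was not tested.

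The mini-colon lines were each set against organoid AKP, whose 6 libraries these 5 comparisons share with each other and with the comparison of in vivo AKP. Line #i had 0.49 more *Cdkn2a* on the log2 scale (SE 0.09) and #ii 0.45 more (SE 0.09), or 0.39 and 0.35 within letter E. *Cdkn2b* differed by 0.000932 in #i (SE 0.16) and was 0.95 higher in #ii (SE 0.15). Line #i had 1 gene without overlap in the higher direction (against 7.7% of all genes) and 1 in the lower direction (7.35%), and #ii had 2 (12.1%) and 1 (11.4%). The lower gene in both was *Cdkn2d*, whose difference within letter E was 0.50 lower (SE 0.17) in #i and 0.27 lower (SE 0.16) in #ii.

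Lines #iv and #v had less of both neighbours. *Cdkn2a* was 0.69 lower in #iv (SE 0.10) and 1.79 lower in #v (SE 0.10), with 0.60 and 1.70 lower within letter F. *Cdkn2b* was 1.05 lower in #iv (SE 0.18) and 2.30 lower in #v (SE 0.20), with 1.04 and 2.29 lower within letter F. These 2 genes were the ones without overlap in each line, where 6.64% of all genes were lower without overlap in #iv and 8.34% in #v. *Cdkn2c* and *Cdkn2d* overlapped with organoid AKP in both lines. Against the letter F libraries of organoid AKP alone, which held 61.4 to 64.4 CPM, *Cdkn2d* was at 53.7 to 58.2 CPM in #iv and 45.5 to 51.3 CPM in #v without overlap, a difference of -0.20 (SE 0.10) and -0.41 (SE 0.10).

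In line #iii all 4 genes lay under every organoid AKP library, where 9.45% of all genes tested did. *Cdkn2a* was 3.68 lower (SE 0.12), a 12.8-fold difference, and *Cdkn2b* was 3.52 lower (SE 0.25), an 11.5-fold difference. *Cdkn2c* was 0.72 lower (SE 0.18) and *Cdkn2d* 1.03 lower (SE 0.27). Within letter E the values were 3.77, 3.54, 0.68 and 0.51 lower, so that the 2 genes of the shared locus stood apart from the other members by over 2 log2 units in either fit.

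**Figure D4:**
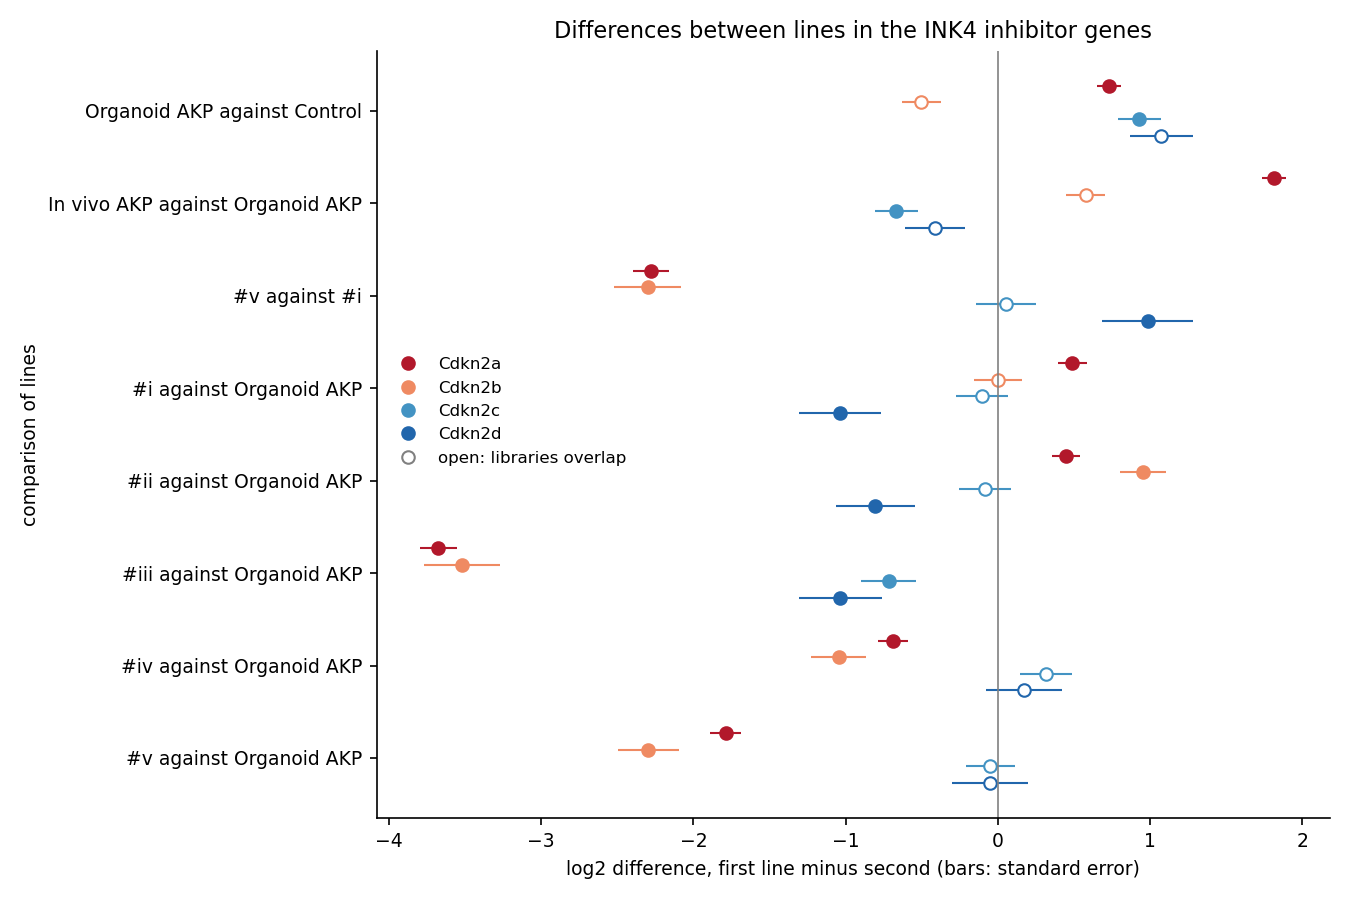
Log2 difference (first line minus second, error bars SE of the edgeR fit) of the 4 INK4 genes in 8 comparisons of lines, with open symbols where the libraries of the 2 lines overlap. In #iii against organoid AKP all 4 genes were lower without overlap, *Cdkn2a* by 3.68 and *Cdkn2b* by 3.52, and in #v against #i these 2 genes were lower by 2.28 and 2.30.

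Other genes also differed between line #iii and organoid AKP. *Trp53* tags were at 10.5, 11.7 and 7.37 CPM in its libraries, from 38, 64 and 21 counts, which was 2.53 log2 units above organoid AKP (SE 0.25, edgeR adjusted p = 7.09e-09). *Prdm16*, a zinc finger regulator that the study names beside *Cdkn2a*, was at 1.93, 1.46 and 0.702 CPM against 10.1 ± 3.55 CPM in organoid AKP (2.77 log2 units lower, SE 0.39, edgeR adjusted p = 6.03e-06). *Cdkn1a*, a p53 target that encodes p21 and that is named here after its values were seen, was at 319, 313 and 302 CPM, above the letter E libraries of organoid AKP (62.3 ± 22.7 CPM) but not different by edgeR in the fit of all libraries (adjusted p = 0.187). Of the 5 genes of the ARF-MDM2-p53 branch 4 were higher in #iii than in organoid AKP, *Trp53*, *Mdm2*, *Mdm4* and *Npm1*, named after their values were seen. *Mdm2*, the ubiquitin ligase of p53, was at 137 against 66.5 CPM (1.05 log2 units higher, edgeR adjusted p = 3.03e-06). Of the 45 genes of the G1-S pathway 9 were higher and 0 lower in #iii, where edgeR called 7.45% of all genes higher and 8.79% lower. At an unadjusted p under 0.05 the pathway counts were 19 and 2, DESeq2 called 9 and 1, limma-voom 14 and 1, and edgeR within letter E alone 8 and 2. With the letter as a covariate edgeR called 6 and 0, with 11 and 1 at an unadjusted p under 0.05. The proliferation marker *Mki67* was at 378 ± 28.9 CPM in #iii and 419.9 ± 57.4 CPM in organoid AKP (edgeR adjusted p = 0.561). The part of these genes in the low *Cdkn2a* and *Cdkn2b* of #iii was not tested.

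Genes of the G1-S pathway, in which INK4 proteins act on CDK4 and CDK6, were tested with edgeR's quasi-likelihood test and Benjamini-Hochberg adjustment. They are not members of the family, but their list was drawn up with earlier results of these data known. The list also holds CIP/KIP inhibitors and the ARF-MDM2-p53 branch. Its counts include the targeted *Trp53*, which differed by -3.30 in organoid AKP against control and by 3.87 in in vivo AKP against organoid AKP. In organoid AKP against control 34 of the 45 G1-S genes were higher and 8 lower, with a median log2 difference of 1.43 against 0.06 over all genes tested, and edgeR called 37.3% of all genes higher and 33.6% lower. *Cdk4*, a kinase that INK4 proteins bind, was at 31.2 ± 6.78 CPM in control and at 122 ± 5.60 CPM in organoid AKP (SD, n = 6 each), 1.94 log2 units higher (SE 0.11, edgeR adjusted p = 2.22e-17). Of the 5 genes of CDK4/6 and D-type cyclins 4 were higher and 1 lower, of the 10 E2F and DP factors 8 were higher and 1 lower, and of the 14 G1-S targets of E2F all 14 were higher. *Cdt1*, a replication licensing factor, was 3.24 higher and *Ccna2*, which encodes cyclin A2, 2.85 higher, and *E2f1*, an activating E2F, was 2.23 higher. Of the 3 pocket proteins 1 was higher and 2 were lower, with *Rb1* 1.73 lower (SE 0.14), and of the 3 CIP/KIP inhibitors 1 was higher and 2 were lower, with *Cdkn1a* 3.87 lower (SE 0.47). All 8 genes of cycling cells were higher too, with *Mki67* 2.72 higher (edgeR adjusted p = 1.75e-17), while *Cdkn2a*, *Cdkn2c* and *Cdkn2d* were the INK4 members at a higher level. Since healthy organoids did not grow in basal medium, recombination and growth in it cannot be told apart in these values.

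In in vivo AKP against organoid AKP 5 of the 45 genes were higher and 12 lower, with a median of -0.19 log2 units against 0.0 over all genes, and edgeR called 34.4% of all genes in either direction. The lower genes were 3 of the 10 E2F and DP factors, 2 of the 5 of cyclin E/A and CDK2, and 7 of the 14 targets of E2F. *E2f8*, a repressive E2F, was 1.09 lower (SE 0.16), *Tk1*, thymidine kinase, 0.66 lower and *Ccna2* 0.63 lower. *Cdkn1c*, which encodes the CIP/KIP inhibitor p57, was at 100.9 ± 17.5 CPM against 16.99 ± 4.26 CPM, 2.54 log2 units higher (SE 0.16, edgeR adjusted p = 9.02e-15). The pocket protein *Rb1* was at 15.5 ± 2.29 CPM against 15.07 ± 2.76 CPM (edgeR adjusted p = 0.954). Fitting only the 2 lines compared left 6 lower genes, and leaving out organoid AKP replicate 2 or replicate 3 left 7, while letter E alone gave 18. Of the 8 genes of cycling cells 5 were lower, while *Mki67* itself differed by -0.0063 log2 units (edgeR adjusted p = 0.982), with a called difference of -0.36 in letter E alone and a difference of 0.34 that was not called in letter F alone.

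In #v against #i 3 of the 45 genes were higher and 10 lower, with a median of -0.21 against 0.03 over all genes, and edgeR called 12.5% of all genes higher and 11.9% lower. *Ccnd3*, cyclin D3, was 0.58 higher (adjusted p = 0.0150) and *Cdkn1b*, which encodes p27, 0.53 higher (adjusted p = 0.0223), while *Mdm2* was 0.71 lower. With the letter as a covariate edgeR called 0 higher and 0 lower, with 2 and 3 at an unadjusted p under 0.05, while without that covariate DESeq2 and limma-voom each called 4 and 10. Without any 1 of the 6 libraries the lower count fell to between 4 and 6, and the higher count was 1 without #i replicate 3 or #v replicate 1. *Tfdp2*, a partner of E2F factors, was 0.75 lower and lost its call with that covariate as well, whereas *Cdkn2a* and *Cdkn2b* differed by -2.21 and -2.33 with it.

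**Figure D5:**
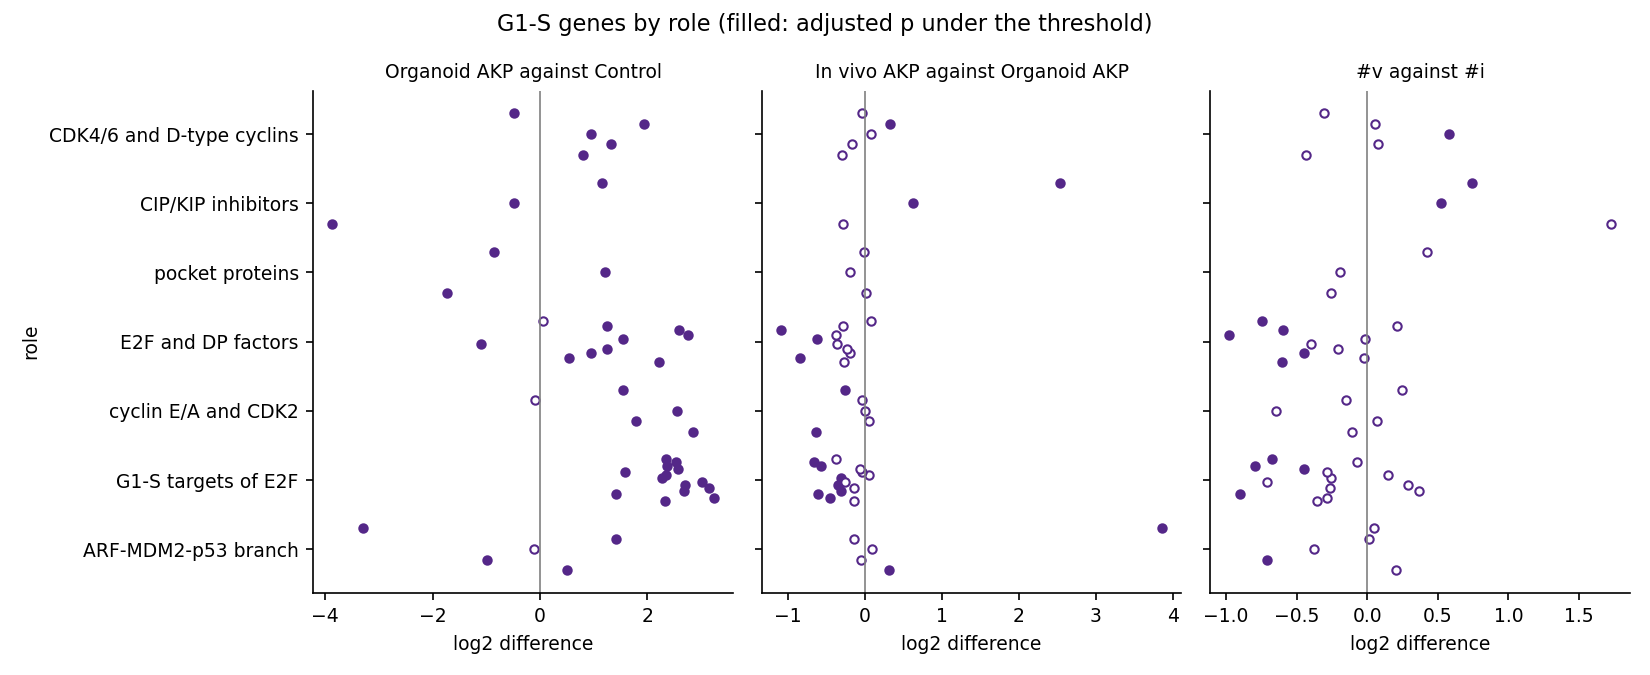
Log2 difference of the 45 G1-S pathway genes, grouped by role, in organoid AKP against control, in vivo AKP against organoid AKP and #v against #i, with filled points where edgeR's adjusted p is under 0.05. In organoid AKP against control all 14 E2F targets were higher, and in in vivo AKP against organoid AKP 7 of the 14 were lower.

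Of 20 known regulators of the *Cdkn2a* locus, 9 were higher and 7 lower in organoid AKP than in control, where edgeR called 37.3% and 33.6% of all genes. Of the 10 Polycomb and chromatin genes among them 4 were higher and 3 lower. The Polycomb genes *Ezh2* and *Suz12*, whose products silence the locus, were 1.31 and 0.97 higher (SE 0.08 and 0.07). *Cbx7* and *Bmi1*, of the same group and named after their values were seen, were 0.79 and 0.37 lower (SE 0.16 and 0.15). *Ets1*, a transcriptional activator of p16INK4a, was 2.53 higher (SE 0.26). In in vivo AKP against organoid AKP 6 were higher and 1 lower, where edgeR called 34.4% of all genes in either direction. *Tbx3*, a T-box repressor of ARF, was 2.33 higher (SE 0.22), although its libraries ranged widely, at 261 ± 135 CPM against 51.3 ± 9.83 CPM, *Ets1* was 2.11 lower (SE 0.25) and *Ets2* 0.66 higher (SE 0.12), the last without a call in letter E alone. In #v against #i 3 were higher and 1 lower, against 12.5% and 11.9% of all genes. The higher genes were *Tbx3* (1.04), *Zbtb7a* (0.47) and *Cbx8* (0.65), the last named after its value was seen, and *Tbx3* and *Zbtb7a* lost their calls with the letter as a covariate. The lower gene was *Dmtf1*, which encodes an activator of the ARF promoter, at 33.8 ± 3.46 CPM in #v against 54.9 ± 2.17 CPM in #i (SD, n = 3 each), a difference of 0.71 log2 units (SE 0.15, edgeR adjusted p = 0.00116) that kept its call in all 14 alternatives. Against organoid AKP, *Dmtf1* was 0.55 lower in #v (edgeR adjusted p = 0.00468). In #iii, the line with the least *Cdkn2a*, *Dmtf1* was at 55.7 CPM against 49.3 CPM in organoid AKP (edgeR adjusted p = 0.349). Of the 20 regulators 3 were higher and 4 lower in #iii than in organoid AKP, where edgeR called 7.45% and 8.79% of all genes. The part of *Dmtf1* and of the other regulators in the *Cdkn2a* levels was not tested.

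Of 6 senescence genes 5 could be tested, of which 4 are described here. In organoid AKP against control *Lmnb1*, lamin B1, was higher and *Glb1*, *Il1a* and *Cxcl1* were lower by edgeR, which called 37.3% of all genes higher and 33.6% lower. In in vivo AKP against organoid AKP *Glb1* and *Cxcl1* were higher and *Il1a* was lower, where edgeR called 34.4% of all genes in either direction. *Il1a* was near the floor, at 0.603 ± 0.486 CPM in organoid AKP (SD, n = 6) and with no count in any in vivo AKP library. *Prdm16* was 1.67 higher in organoid AKP than in control (edgeR adjusted p = 7.85e-07) and differed by 0.11 between in vivo AKP and organoid AKP (edgeR adjusted p = 0.759), a pair in which *Cdkn2a* differed by 1.82. With letter F alone this difference of *Prdm16* was 0.54 and was called.

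Of the 28 annotated genes within 500 kb of the *Cdkn2a* and *Cdkn2b* pair, 5 passed the filter on low values and 19 had no count in any library. *Mtap*, the neighbour that encodes methylthioadenosine phosphorylase and is often lost together with *CDKN2A* in human tumours, was at 177 CPM in #iii and 178.5 CPM in organoid AKP (edgeR adjusted p = 0.970). In #v it was at 182 CPM (adjusted p = 0.911 against organoid AKP) and in in vivo AKP at 184 CPM (adjusted p = 0.708). These differences of *Mtap* from organoid AKP were -0.01, 0.03 and 0.05 log2 units (SE 0.12, 0.11 and 0.09), in the lines where *Cdkn2a* differed by -3.68, -1.79 and 1.82. With letter F alone *Mtap* was 0.27 higher in #v than in organoid AKP and was called. Over all libraries it was 1.24 log2 units higher in organoid AKP than in control (SE 0.10, edgeR adjusted p = 1.97e-13) and 0.52 higher in #ii than in organoid AKP (SE 0.11, edgeR adjusted p = 0.000987). It was also 0.40 higher in #i than in organoid AKP (edgeR adjusted p = 0.0306) and 0.37 lower in #v than in #i (edgeR adjusted p = 0.0416), the direction of *Cdkn2a* in both pairs, and lost these calls in 10 of 18 and in 8 of 14 alternatives, the letter as a covariate among them. *Gm49890* was 0.97 lower in organoid AKP than in control (edgeR adjusted p = 1.50e-05) and 1.09 lower in #v than in #i (edgeR adjusted p = 0.00350), the latter without a call with the letter as a covariate. The lncRNA *Wincr1* was 0.88 lower in in vivo AKP than in organoid AKP (edgeR adjusted p = 4.09e-05) and 1.12 lower in #v than in #i (edgeR adjusted p = 0.000683). In #v it was also 0.80 lower than in organoid AKP (edgeR adjusted p = 0.00661), the direction of *Cdkn2a*, a call lost without #v replicate 3. In #iii it was 0.11 higher than in organoid AKP without a call.

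The genes most like each member were ranked by Pearson's r of log2 CPM over the 33 libraries among 9848 genes, as a description of points that share lines, letters and depth. *Thbs1*, which encodes thrombospondin 1, was the closest to *Cdkn2a* with r = 0.857, ahead of *Cdkn2b* with r = 0.837, and *Ppfibp2*, *AI467606* and *Wipi1* followed. *Cdkn2b* had *Cdkn2a* as its closest gene, before *Wipi1* (r = 0.805), *Vamp5*, *P2rx4* and *Elf1*. *Thbs1* spanned 12.5 CPM in #iii to 52.6 CPM in in vivo AKP, the same lowest and highest line as *Cdkn2a* over a narrower range. *Cdkn2c* was closest to *Ubqln4* (r = 0.820), *Tsfm*, *Acp6*, *Mrpl41* and *Dtnb*, and *Cdkn2d* to *Eno1b* (r = 0.901), *Pdia6*, *Ssr3*, *Spcs2* and *Pabpc1*, each of which was also higher in the letter F lines #iv and #v than in the letter E lines #i, #ii and #iii. Among the members themselves, *Cdkn2c* and *Cdkn2d* correlated over the 8 line means with r = 0.708 (rho = 0.857), whereas the other pairs outside *Cdkn2a* and *Cdkn2b* had r between -0.15 and 0.16.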

How the data were processed

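QuantSeq 3′ libraries of 33 organoid samples in 8 lines were analysed from deposited raw counts per Ensembl gene, which the authors made by aligning reads to GRCm39 with STAR and counting them. The counting strand is not given in the sources used here. The submitters' processing notes name R 4.1.2, edgeR and limma. Rows without a gene name (611, 6.85% of counts) stayed in the fit. Groups were taken from the labels. The 13606 genes that reached 1 CPM in 3 or more libraries were fitted in 1 model of the 8 lines with TMM scaling, using edgeR 4.0.16 (robust quasi-likelihood) in R 4.3.3, with Benjamini-Hochberg adjustment at 0.05. SE is that of the fitted log2 difference, and p-values rest on the spread between libraries only. The members and gene lists were chosen with earlier results of these data known, so no test was run on the members. Non-member genes were named by the smallest p per role among called genes of at least 5 CPM, and likeness by the 5 highest r per member. Alternatives were DESeq2 1.42.0 and limma 3.58.1 (voom), other scaling, no filter, the letter as a covariate, each letter alone, the replicate block, only the lines compared and leaving out each library. No pair of replicates agreed within sampling noise (chi-square per degree of freedom 1.66 to 46.8 over 60 pairs). The fits were tested on simulated data. Promoters are from RefSeq, in a table of build GRCm38.p6. Some genes of the lists and 1 engineered allele are not reported here.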

Additional observations from a re-analysis of the deposited data

How the results depend on the processing

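Of the 32 member differences, 27 kept their direction in every alternative. *Cdkn2a* in organoid AKP against control was 0.58 with letter F alone and 0.61 to 0.76 with 1 library left out, and in in vivo AKP against organoid AKP it was 1.93 with letter F alone. *Cdkn2d* in #v against #i was 0.14 with the letter as a covariate. The 5 differences that changed direction lay between -0.05 and 0.17. *Cdkn2b* in #i against organoid AKP was -0.000317 without unnamed identifiers (chosen after seeing the data), -0.0142 with letter E alone and -0.0688 to 0.11 with 1 library left out. *Cdkn2d* in #iv against organoid AKP was -0.17 with the letter as a covariate and -0.20 with letter F alone. With 1 library left out, *Cdkn2c* in #v was -0.00953 to 0.17 against #i and -0.0913 to 0.0113 against organoid AKP, and *Cdkn2d* in #v against organoid AKP was -0.15 to 0.042.

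Of the G1-S counts, the lower genes of in vivo AKP were 6 with only the lines compared and 7 to 14 with 1 library left out, and 11 with DESeq2 or letter F alone, 15 with limma-voom, 16 with the letter as a covariate and 18 with letter E alone. In #v against #i the higher genes were 0 with the letter as a covariate, 8 with only the lines compared and 1 to 3 with 1 library left out, and the lower genes were 6 with no filter, 0, 21 and 4 to 6. The cause was not tested.

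Same-numbered libraries deviated together with correlations of 0.07 to 0.20, 0.07 to 0.38 and 0.00604 to 0.03 in the 3 main comparisons, and 2 of 6, 1 of 6 and 2 of 3 libraries correlated best with their own number. In organoid AKP against control and in vivo AKP against organoid AKP, same-numbered libraries also share a letter. Taken within letters, the correlations there were -0.041 to 0.041 and -0.027 to 0.044. With the replicate block the higher and lower counts were 33 and 8, 5 and 15, and 4 and 13, and *Cdkn2d* in #v against organoid AKP was 0.46. For #v, this block joins letter F libraries to same-numbered letter E libraries of organoid AKP and #i, so it does not separate number from letter there. Within letter F alone *Cdkn2d* in #v against organoid AKP was -0.41. Depth limits *Cdkn2b* in #iii, which rests on 3 to 9 counts.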
